A study of Homo sapiens with 6 samples.

Results

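Histones package DNA into nucleosomes, and chromatin modifiers write, erase or read the marks on them. The deposited RNA-seq table compares OGT-depleted HT-29 cells with controls, and 64 of its 5681 genes were protein-coding histone genes or chromatin modifiers by gene symbol. They comprised 25 histone genes and 39 modifiers. The histone genes fell into 20 genes of the histone clusters, whose symbols start with HIST, and 5 genes for histone variants that stand singly in the genome (H1F0, H1FX, H2AFV, H2AFX and H3F3B). In OGT-depleted cells all 20 cluster histone genes were higher and all 5 single variant genes were lower. Of the modifiers, 9 were higher and 30 were lower. Every gene of the table had already been selected for a change in this contrast, and 42.65% of its protein-coding genes were higher.

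HT-29 is an established human colorectal cancer cell line, described in the labels as dependent on anchorage. Libraries came from cells with a Scramble hairpin (genotype label WT, n = 3, numbered 1 to 3) or a hairpin against OGT (shOGT, genotype label OGT knock down, n = 3, numbered 4 to 6). All 6 libraries carry the same treatment label, and the labels give no time or batch, nor which OGT hairpin was used, so loss of OGT and other effects of that hairpin cannot be told apart. The labels do not say that libraries of a group came from separate cultures, so the p-values measure only the spread between these libraries, which may be technical. In bulk RNA, fewer cells that express a gene and less RNA per cell cannot be told apart.

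OGT transfers a single N-acetylglucosamine sugar to nuclear and cytoplasmic proteins. Several of its known partners act on chromatin, among them the transcriptional cofactor HCFC1, which OGT also cleaves, the corepressor scaffold SIN3A, the TET enzymes, and the deubiquitinase complex of BAP1 and ASXL1. Cluster histone genes supply core and linker histones for newly replicated DNA. Most of their mRNAs end in a conserved stem-loop in place of a poly(A) tail, and their transcription and processing rise in S phase. Variant histone genes outside the clusters mostly yield ordinary polyadenylated mRNAs and are expressed in resting cells as well, although H2AFX is known for mRNA of both kinds. The labels describe oligo(dT) capture of mRNA, so cluster histone mRNA without a poly(A) tail would be captured poorly, and the counts below are of the RNA that was captured.

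Sequence features of the cluster genes are shown first, because the rule on symbols did not use them. H2B genes were the most numerous class, with 9 members, all of them higher in shOGT. The octamer ATTTGCAT, the element of H2B promoters bound by OCT1, was searched on both strands in RefSeq promoters of GRCh38.p14, from 250 bases before to 50 bases after each gene's start. Of the 64 members, 55 were matched to such a promoter. The octamer stood in 7 of the 9 H2B promoters (77.8%), in 1 of 10 promoters of other cluster histone genes, in 1 of 4 of single variant genes, in 1 of 32 promoters of modifiers (3.12%) and in 492 of all 27305 promoters (1.8%). The match among other cluster genes was HIST1H2AC, whose window overlaps that of HIST1H2BC and holds the same octamer site. The 7 H2B windows are printed 5′ to 3′ on the strand of the gene, with the octamer in capitals.

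HIST1H2BC, chr6:26124010-26124061, minus strand, octamer 123 bases before the start: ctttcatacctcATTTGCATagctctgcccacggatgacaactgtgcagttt
HIST1H2BE, chr6:26183641-26183692, plus strand, octamer 108 bases before the start: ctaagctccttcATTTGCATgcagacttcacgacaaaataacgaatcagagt
HIST1H2BF, chr6:26199393-26199444, plus strand, octamer 111 bases before the start: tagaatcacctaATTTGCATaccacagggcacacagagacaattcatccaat
HIST1H2BG, chr6:26216697-26216748, minus strand, octamer 48 bases before the start: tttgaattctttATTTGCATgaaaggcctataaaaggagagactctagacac
HIST1H2BH, chr6:26251553-26251604, plus strand, octamer 49 bases before the start: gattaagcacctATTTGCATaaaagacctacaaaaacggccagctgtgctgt
HIST1H2BK, chr6:27146865-27146916, minus strand, octamer 46 bases before the start: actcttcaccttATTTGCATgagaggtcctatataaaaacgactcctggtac
HIST2H2BF, chr1:149812380-149812431, minus strand, octamer 49 bases before the start: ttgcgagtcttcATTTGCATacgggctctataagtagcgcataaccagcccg

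The windows of HIST1H2BD and HIST1H2BN did not hold these letters, although both genes were higher in shOGT. The pentamer CCAAT, also searched on both strands, stood in all 9 H2B promoters, in 15 of the 19 cluster promoters matched (78.9%), in 3 of the 4 single variant promoters matched (75%), in 14 of the 32 modifier promoters (43.8%) and in 35.7% of all promoters. The letters TATAAA stood in 10 of 19 cluster promoters (52.6%), in 3 of 4 single variant promoters (75%), in 1 of 32 modifier promoters and in 12% of all promoters. The E-box CACGTG, which c-Myc can bind, stood in 0 of 19 cluster and 0 of 4 single variant promoters, in 2 of 32 modifier promoters (6.25%) and in 7.43% of all promoters. These matches describe the letters in the windows and do not show binding.

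The histone stem-loop was searched in the GENCODE version 29 transcripts of the members, on the strand of the transcript. Its forms are shown because they mark which cluster genes have an annotated transcript that runs through the usual end of a histone mRNA. Capitals mark the stem and lower case the loop.

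HIST1H2AC, HIST1H2BE, HIST1H2BG, HIST1H2BH, HIST1H2BN and HIST2H2BF: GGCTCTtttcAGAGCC
HIST1H2BC, HIST1H2BD and HIST1H2BF: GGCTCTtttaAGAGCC
HIST1H4E and HIST1H4H: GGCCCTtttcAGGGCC
HIST1H4I: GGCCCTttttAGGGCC
H2AFX: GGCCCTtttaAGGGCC

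A stem-loop stood in a transcript of 12 of the 20 cluster members (60%), and in 19 of the 51 cluster histone genes of GENCODE that are not in the table (37.25%). Among all 19922 protein-coding genes with a transcript, 34 held it (0.171%), and 31 of those were cluster histone genes. H2AFX was the only single variant member with it. A transcript that ran on for 100 or more bases past the stem-loop was annotated for 11 of the 20 cluster members (55%) and for 11 of the 51 others (21.57%), a length chosen after the values were seen. Of genes with a stem-loop in a transcript, these were 11 of 12 members and 11 of 19 others. Several models without a match, such as that of HIST1H2BK, stop at the end of the coding part and cannot hold a stem-loop.

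OGT was examined as a check of the labels, at 9628 to 11638 normalized counts in Scramble and 484 to 621 in shOGT. It retained 4.99% of its Scramble level in shOGT, with a log2 fold change of -4.32 (SE 0.11, adjusted p = 1.59e-12 by limma). An exact two-sided permutation test gave p = 0.1 (the smallest possible with 3 libraries per group). The authors divided the read counts of each library by its size factor, and these values are called normalized counts here. Whole reads were recovered for 100% of them, 4145921 to 4504303 reads per Scramble library and 3302558 to 3471647 per shOGT library on the genes of the table. Called genes are those with a log2 fold change beyond 1 in either direction, on normalized counts + 1, and an adjusted p of limma under 0.05.

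Every gene of the table had already passed a 2-fold change and an adjusted p under 0.05 in the authors' own test of this same contrast. All 64 members were called, and in all 64 the normalized counts of the groups did not overlap. Over the 5671 genes tested, 99.4% were called and 99.5% did not overlap, so these counts say nothing particular about the members. GENCODE version 29 has 253 protein-coding genes whose symbols fit the same rule, 71 of them cluster histone genes, 16 single histone genes and 166 modifiers. Those outside the table, including EP300, CREBBP, TET1, TET2, TET3, DNMT1, DNMT3A, HDAC2, KDM5B and ARID1A, were not analysed here.

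Directions and sizes are therefore given as descriptions. Called higher were 29 members and called lower 35, beside 52.2% called higher and 47.2% called lower over all genes tested. Among protein-coding genes, which hold all the members, 42.65% had a log2 fold change above 0 and the median was -1.11. The median log2 fold change was 2.01 over the 20 cluster histone genes, -1.49 over the 5 single variant genes and -1.31 over the 39 modifiers. For the 2 cluster genes at the floor of 3 reads in Scramble, the shOGT mean over that floor was used instead. The cluster median was then 1.89.

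**Figure D1:**
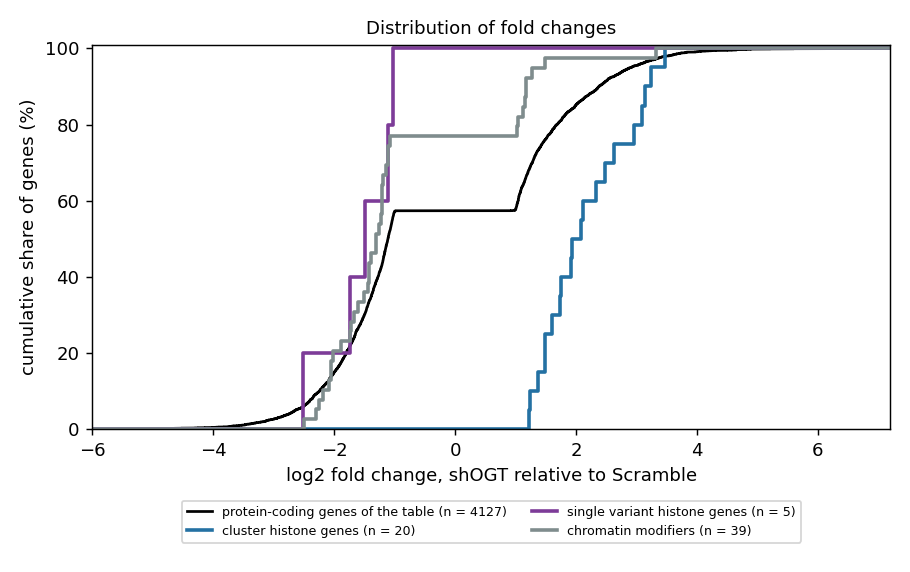
Cumulative share of genes (%) against the log2 fold change of shOGT relative to Scramble, for the protein-coding genes of the table and for the 3 groups of members. The flat stretch between -1 and 1 is the range left out of the table. The cluster histone line lies wholly to the right of it and the single variant line wholly to the left, and the modifier line has 9 of 39 genes on the right.

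The cluster histone genes of the table rose together, but from low levels, with a median of 11.15 normalized counts in Scramble. At such levels a gene could enter the table more readily by a rise than by a fall. The shared direction may therefore come in part from the restriction of the table, which was not tested. The 51 cluster histone genes outside it were not analysed. Summed over the 20 genes, the Scramble libraries held 1094, 1017 and 997.5 normalized counts and the shOGT libraries 3366, 3075 and 3641. The lowest shOGT sum was above the highest Scramble sum, and the ratio of the group means was 3.24. The largest changes were in H4 and H2B genes, and 8 of the 20 genes were fitted at more than 4-fold higher. This leaves aside the 2 at the floor, for which only the shOGT mean over that floor is given.

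**Figure D2:**
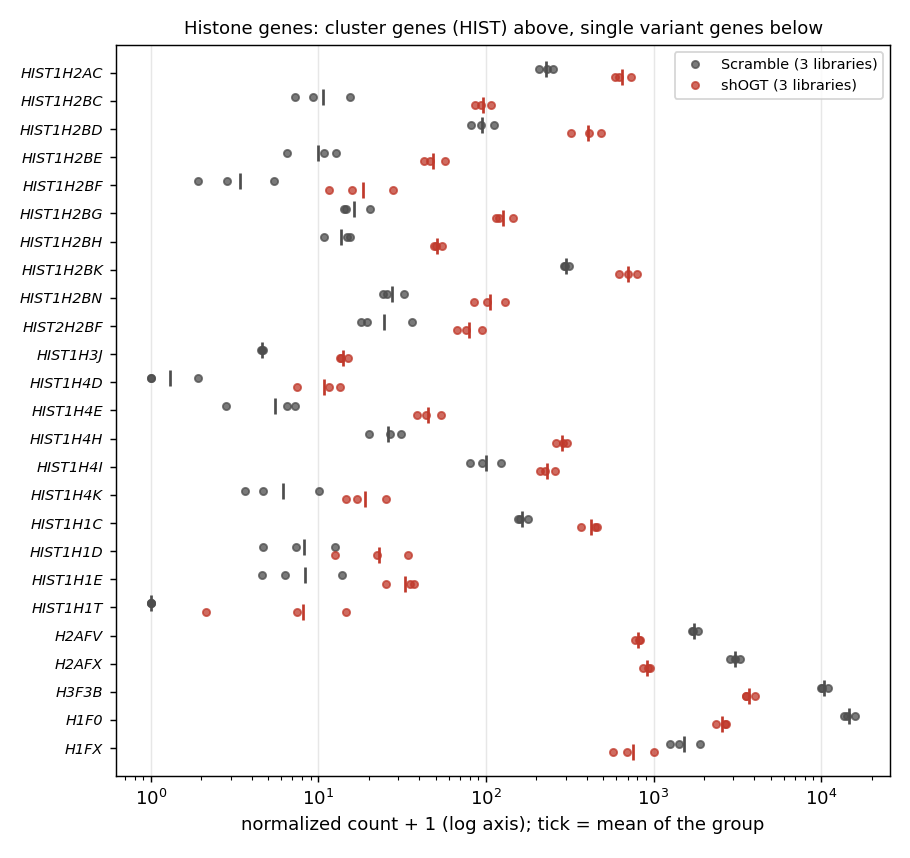
Normalized count + 1 on a log axis for each of the 25 histone genes, with 1 point per library (3 Scramble, 3 shOGT) and a tick at the mean of each group. The shOGT points lie to the right of the Scramble points in the 20 cluster genes and to the left in the 5 single variant genes at the bottom. HIST1H1D is the gene whose nearest points almost touch.

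Histone H4 was represented by 5 genes, which encode the same protein. HIST1H4H (ENSG00000158406, chromosome 6 from 26277609 to 26285638 on GRCh38) had 30.2, 18.9 and 25.8 normalized counts in Scramble and 261, 286 and 305 in shOGT. The highest Scramble library was far below the lowest shOGT library. Its mean rose from 24.9 ± 5.66 to 284 ± 22.1 (SD, n = 3), 11.4-fold, with a log2 fold change of 3.48 (SE 0.22, adjusted p = 2.9e-09). This was the highest value among the members that were not at the floor in Scramble, within 1 SE of that of HDAC9 described below.

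HIST1H4E had 6.21, 1.80 and 5.52 normalized counts in Scramble and 52.6, 42.8 and 37.6 in shOGT. Its log2 fold change was 3.14 (SE 0.43). HIST1H4I stood higher in the controls, at 122, 93.7 and 79.1, and reached 208, 225 and 256 in shOGT. That difference was smaller, at 1.23 (SE 0.18) on the log2 scale. HIST1H4D was at or under 3 reads in every Scramble library and had 10.5, 6.43 and 12.5 normalized counts in shOGT. Its shOGT mean was at least 3.63-fold higher against a floor of 3 reads per library. HIST1H4K rose from 5.12 ± 3.41 to 18.0 ± 5.53 (SD, n = 3), but 100% of its stretches of 75 bases also occur in HIST1H4J, so the source of its reads is uncertain.

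The 9 H2B genes spanned log2 fold changes of 1.23 to 3.23, with a median of 2.09. HIST1H2BC (chromosome 6 from 26114873 to 26123926) had 6.21, 14.4 and 8.28 normalized counts in Scramble and 106, 84.6 and 92.2 in shOGT. Every shOGT library was several times above every Scramble library, and the mean rose 9.79-fold (log2 fold change 3.23, SE 0.34, adjusted p = 4.89e-07). HIST1H2BG had 13.3, 13.5 and 19.3 normalized counts in Scramble and 114, 119 and 143 in shOGT, an 8.15-fold rise (log2 fold change 2.96, SE 0.27).

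HIST1H2BK was among the most abundant cluster genes. It stood at 291, 296 and 312 normalized counts in the controls and at 797, 618 and 702 in shOGT, and its log2 fold change of 1.23 (SE 0.12) was the smallest of the class. The source of part of its reads is uncertain, since 50.5% of its 75-base stretches occur in other genes. HIST1H2BD had 110.0, 80.2 and 92.0 normalized counts in Scramble and 412, 321 and 486 in shOGT (log2 fold change 2.09, SE 0.18). Both genes were well separated between the groups at depths where counting error is small.

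The other H2B genes were lower in reads. HIST1H2BN rose from 26.5 ± 4.19 to 104 ± 22.7 normalized counts (SD, n = 3), HIST1H2BH from 12.7 ± 2.53 to 50.3 ± 3.06. HIST1H2BE had 9.76, 11.7 and 5.52 in Scramble and 45.3, 41.8 and 55.8 in shOGT. Of its exon bases, 28.2% lie opposite AL353759.1, and the counting is not stated to use strand. HIST2H2BF, the only cluster member on chromosome 1, rose from 23.5 ± 10.1 to 78.3 ± 14.5, and 50.6% of its stretches occur elsewhere. HIST1H2BF was the scarcest, with 4.43, 0.901 and 1.84 normalized counts in Scramble and 10.5, 26.8 and 14.8 in shOGT. Its log2 fold change of 2.48 had a wide standard error of 0.50.

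Histones H2A and H3 had 1 cluster gene each. HIST1H2AC had 249, 231 and 206 normalized counts in Scramble and 587, 618 and 735 in shOGT, with a log2 fold change of 1.49 (SE 0.13). HIST1H3J had 3.55, 3.60 and 3.68 in Scramble and 12.6, 13.9 and 12.5 in shOGT, a log2 fold change of 1.60 (SE 0.39). These are only a few reads per library, and 44.7% of the exon bases of HIST1H3J lie in HIST1H2AM on the same strand.

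Linker histones sit at the entry and exit of DNA on the nucleosome, and they divided by gene type. HIST1H1C had 177, 160 and 155 normalized counts in Scramble and 446, 366 and 461 in shOGT (log2 fold change 1.37, SE 0.14). HIST1H1E rose from 7.27 ± 4.94 to 31.6 ± 6.52 (SD, n = 3). Both were separated between the groups.

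HIST1H1D was not as secure. Controls had 11.5, 6.31 and 3.68 normalized counts and shOGT libraries 11.6, 21.4 and 33.0, and its recovered reads overlapped, with 13 in the highest Scramble library and 11 in the lowest shOGT library. Its log2 fold change was 1.49 (SE 0.48, adjusted p = 0.00788 by limma), and without the shOGT library numbered 6 it was 1.16 with an adjusted p of 0.0577. HIST1H1T, a linker histone known from testis, was at 0 reads in all Scramble libraries and had 13, 6 and 1 reads in shOGT. Its shOGT mean was 2.62-fold above the floor of 3 reads in Scramble. The shOGT library numbered 6, with 1 read, was itself under 3 reads, so this ratio does not hold for each library.

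**Figure D3:**
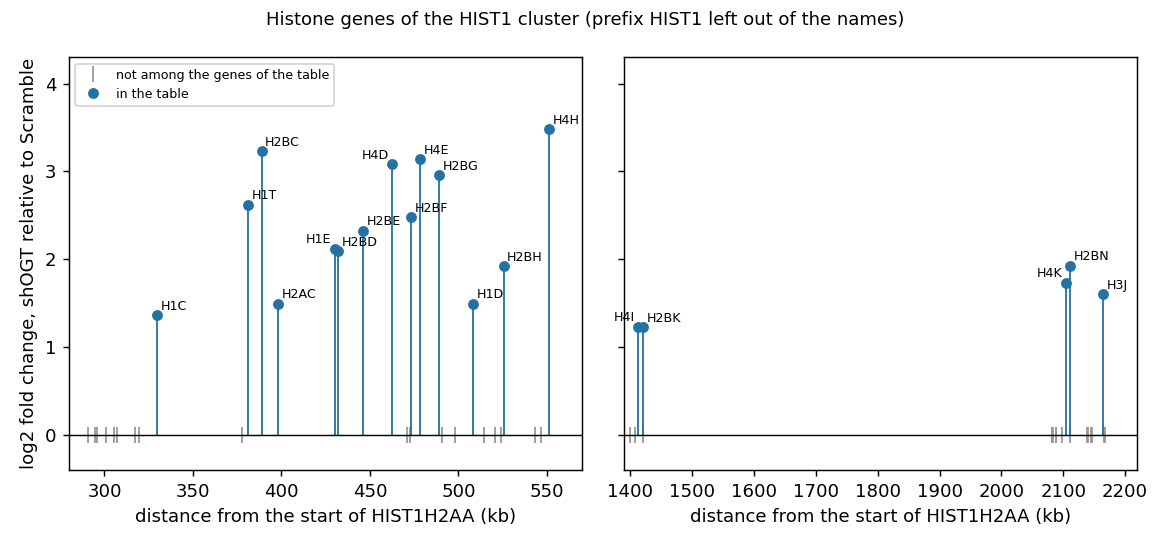
Log2 fold change of shOGT relative to Scramble for the HIST1 genes of the table (circles), against distance (kb) from the start of HIST1H2AA, in the stretches of the cluster that hold the 19 members. Grey marks on the zero line are other histone genes of GENCODE version 29 that are not in the table. Members stand between genes outside the table in both stretches, with values from 1.23 to 3.48.

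On the chromosome, 19 of the 20 cluster members lay in the HIST1 cluster of chromosome 6, where GENCODE version 29 has 55 protein-coding histone genes. Of the 20, 17 had a main transcript with a single exon. Outside the members, 104 protein-coding genes of the table had a single exon, of which 67 were higher and 37 lower, with a median log2 fold change of 1.26. That group was thus also more often higher than protein-coding genes in all, and the part of gene structure in the result was not tested.

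Genes that mark S phase were set beside the cluster histone genes. Of a list of 24 S phase genes, the table held 10, and each of these was lower after OGT depletion (median log2 fold change -1.27). PCNA, the sliding clamp of DNA polymerases, had the lowest value (-1.90), followed by the repressor E2F8 (-1.88). RRM1 (-1.07) and TK1 (-1.03), which serve nucleotide supply, had the highest, and were no longer called after the rescaling described below (-0.35 and -0.31). Summed over the 10 genes, the Scramble libraries held 12585, 13139 and 12735 normalized counts and the shOGT libraries 5275, 5334 and 5218. The cluster histone sum thus rose in the same libraries in which the S phase sum fell, and the part of cell cycle in the result was not tested.

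Machinery for histone mRNA and for histone transport was lower where it was in the table. Of 15 genes for histone mRNA processing and the histone locus, 2 were in the table, ZNF473 (log2 fold change -1.53), which belongs to the complex that cuts histone pre-mRNA, and CSTF2 (-1.14), a cleavage factor for polyadenylation. Of 22 histone chaperones the table held 5, each of them lower. ASF1B, which hands newly made H3 and H4 to chromatin assembly, had 978, 934 and 949 normalized counts in Scramble and 111, 93.2 and 59.2 in shOGT. It kept 9.19% of its level (log2 fold change -3.48). CHAF1B, a subunit of the replication-coupled assembly factor, had a log2 fold change of -2.40, and the values of HJURP and VPS72 were -1.80 and -1.12. After the rescaling described below, ZNF473 (-0.81), CSTF2 (-0.42) and VPS72 (-0.41) were no longer called.

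The single variant histone genes fell from high levels. Summed over the 5 genes, the Scramble libraries held 32895, 31664 and 29667 normalized counts and the shOGT libraries 9011, 8261 and 9058, a ratio of 0.279. This fall in normalized counts was larger than the rise of the cluster genes, so the sum over the 25 histone genes of the table was lower in shOGT. Cluster histone mRNA without a poly(A) tail would be captured poorly, so this sum does not stand for all histone RNA. The groups did not overlap in any of the 5 genes, as in 99.5% of all genes tested.

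H1F0 (ENSG00000189060, chromosome 22 from 37805093 to 37807436) encodes a linker histone that accumulates in resting and differentiated cells. Controls had 15997, 14361 and 13706 normalized counts, and shOGT libraries 2672, 2365 and 2695. The 3 shOGT libraries were close together and far below every control. The mean fell from 14688 ± 1180 to 2578 ± 185 (SD, n = 3), 17.5% of the control, with a log2 fold change of -2.51 (SE 0.09, adjusted p = 2.28e-11). This was the lowest value of the 64 members, and that of CBX2 lay within 1 SE of it. Per kb of gene model, the level of H1F0 fell from 6266 to 1100 normalized counts, while that of the cluster linker gene HIST1H1C rose from 255 to 661.

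H2AFX encodes the H2A variant that is phosphorylated at DNA breaks. It had 3259, 3063 and 2845 normalized counts in Scramble and 957, 862 and 924 in shOGT, and kept 29.9% of its level (log2 fold change -1.74, SE 0.09). H3F3B encodes the replacement form of histone H3. It had 10054, 10976 and 10161 in Scramble and 3552, 3569 and 4030 in shOGT, with a log2 fold change of -1.49 (SE 0.09). Both fell evenly across the libraries.

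H2AFV, of the H2A.Z family, fell from 1749 ± 79.9 to 811 ± 30.8 normalized counts (SD, n = 3). H1FX, a linker histone, had 1889, 1423 and 1245 in Scramble and 1006, 690 and 575 in shOGT. Its libraries varied more than those of the other variants, and its log2 fold change of -1.02 (SE 0.18) passed -1 narrowly. It was -0.85, -0.97 and -0.84 without the Scramble library numbered 1, the shOGT library numbered 5 and the shOGT library numbered 6. Of the exon bases of H1FX, 22.9% lie opposite H1FX-AS1, and the counting is not stated to use strand.

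**Figure D4:**
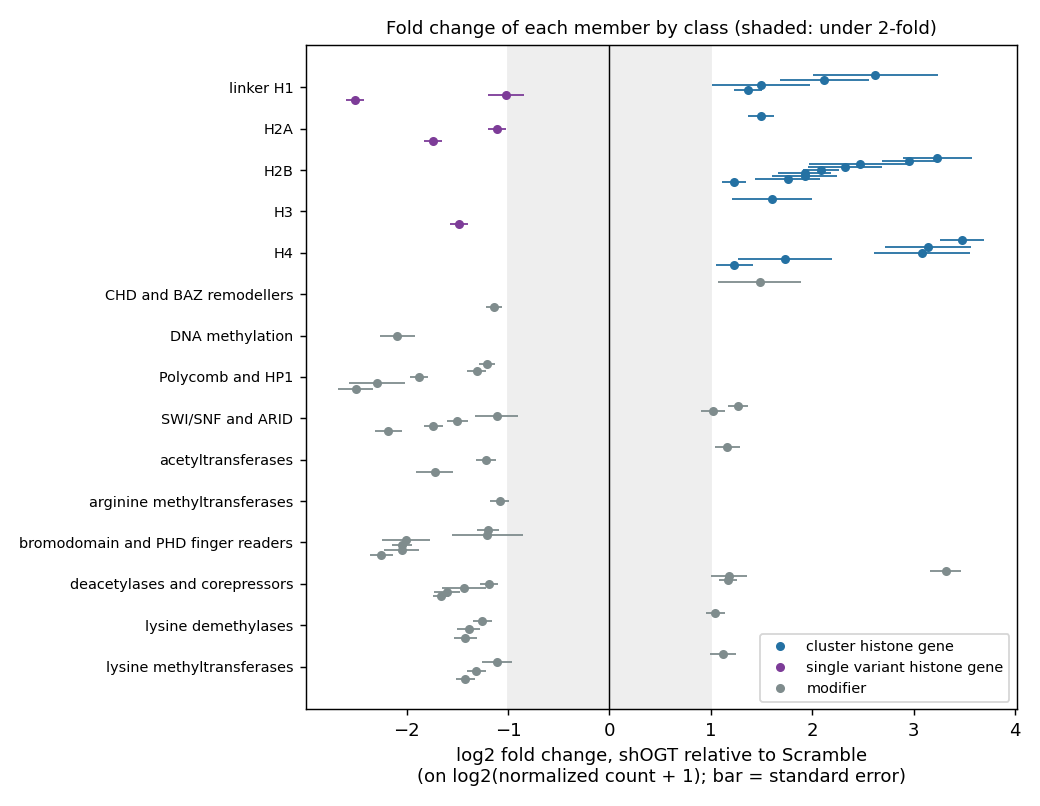
Log2 fold change of shOGT relative to Scramble on log2(normalized count + 1) for each of the 64 members, by class, with bars for the standard error of the limma fit. The shaded band is a change under 2-fold. Cluster histone genes lie to the right of it, single variant genes to the left, and the classes of Polycomb and HP1 proteins and of bromodomain and PHD finger readers hold only genes on the left.

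The size of the fall depended on the scaling of the libraries. Median-of-ratios rescaling, computed on the table's genes, raised log2 fold changes by 0.71 on the median of all genes. Such a shift favours higher genes, and all 2980 of those tested were called after it. A kept call is therefore informative only for lower genes. Every gene of the table had been picked as changed, so the rescaling had no steady genes to rest on. No member changed sign, nor did any other gene of the table, since all lay near or past 2-fold. Of the 64 members 42 then remained past the thresholds, 29 higher and 13 lower, beside 71.8% of all genes, 52.5% higher and 19.2% lower. Among histone genes 20 stayed called higher and 2 lower (H1F0 and H2AFX), and among modifiers 9 higher and 11 lower. The 11 lower modifiers that kept their call were CBX1, CBX2, CBX7, BRD3, BRD3OS, PHF2, PHF11, DNMT3B, SMARCAL1, SMARCD2 and KAT14.

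The Polycomb and HP1 class had 5 members, which were all lower after OGT depletion (median log2 fold change -1.88). CBX2, which compacts chromatin as a chromobox subunit of a Polycomb complex, had 490, 409 and 390 normalized counts in Scramble and 89.5, 77.1 and 60.3 in shOGT. It kept 17.6% of its level (log2 fold change -2.50, SE 0.17, adjusted p = 6.83e-09). CBX7, another Polycomb chromobox protein, had 129, 103 and 116 in Scramble and 16.8, 32.1 and 21.6 in shOGT (log2 fold change -2.29, SE 0.28). Both were well separated and kept their call after rescaling, as did CBX1, an HP1 protein of heterochromatin (-1.88), which was picked for mention after its value was seen. Of the exon bases of CBX7, 17.9% lie opposite AL031846.2, and use of strand in counting is not stated.

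EZH2, the enzyme that places the repressive Polycomb methyl mark on histone H3, had 1348, 1531 and 1559 normalized counts in Scramble and 559, 606 and 621 in shOGT. Its log2 fold change was -1.31 (SE 0.10), and -0.59 after rescaling. ASXL1 had 3943, 4161 and 4102 in Scramble and 1792, 1762 and 1726 in shOGT (log2 fold change -1.21, SE 0.08). Its partner BAP1, the deubiquitinase that acts on histone H2A, was a gene of the Polycomb cofactor list, of which the table held 3 of 23, each of them lower. BAP1 fell from 988 ± 44.9 to 281 ± 30.7 (SD, n = 3). PHC2 and RING1, of the complexes with the chromobox proteins, had log2 fold changes of -1.51 and -1.05. After rescaling PHC2 (-0.79) and RING1 (-0.34) were no longer called.

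Bromodomain and PHD finger readers, which bind acetylated or methylated lysines, were all 6 lower, with a median log2 fold change of -2.03. BRD3, a BET protein that binds acetylated histones, had 1541, 1304 and 1345 normalized counts in Scramble and 300.0, 320.2 and 258 in shOGT, 21.0% of its level (log2 fold change -2.25, SE 0.11). BRD3OS, on the opposite strand of the same locus, fell alike, from 225 ± 12.2 to 53.5 ± 1.94 (SD, n = 3). It fits the rule by its symbol only, and 21.4% of its exon bases overlap those of BRD3, so without strand their reads cannot be told apart there. PHF2 (-2.05) and PHF11 (-2.01), noted after their values were seen, also kept their call after rescaling, while PHF1, a Polycomb partner (-1.20), and PHF7 (-1.20) did not.

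DNMT3B, which places new methyl groups on DNA, was the only DNA methylation enzyme among the members. The control libraries held 254, 248 and 253 normalized counts, against 53.7, 55.7 and 66.0 in shOGT. The controls were nearly equal, and DNMT3B kept 23.2% of their level (log2 fold change -2.09, SE 0.17, adjusted p = 3.48e-08). Of 9 listed partners of DNA methylation, 3 were in the table. UHRF1, which guides maintenance methylation, had a log2 fold change of -1.43, and -0.71 after rescaling. ZBTB33, which binds methylated DNA, rose from 985 ± 79.0 to 2765 ± 346 (SD, n = 3).

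Deacetylases and corepressors went both ways, 3 higher and 4 lower. HDAC9, a class IIa deacetylase, rose the most among all modifiers. It had 52.3, 52.3 and 46.9 normalized counts in Scramble and 470, 507 and 563 in shOGT. Its mean was 10.2-fold higher in shOGT (log2 fold change 3.32, SE 0.15, adjusted p = 1.75e-10), and no other modifier was more than 4-fold higher. HDAC1, the catalytic subunit of the SIN3 and NuRD complexes, went the other way, with 4040, 3970 and 3826 in Scramble and 1260, 1206 and 1267 in shOGT (log2 fold change -1.66, SE 0.08, and -0.95 after rescaling). HDAC6, which deacetylates tubulin, fell from 617 ± 67.0 to 202 ± 22.7 (SD, n = 3). HDAC11, also named after its value was seen, fell from 214 ± 14.4 to 81.2 ± 27.7.

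The partners of OGT among these corepressors differed in direction. HCFC1 (chromosome X from 153947553 to 153971807) had 2824, 2483 and 2522 normalized counts in Scramble and 6343, 5866 and 5407 in shOGT, a log2 fold change of 1.17 (SE 0.09, adjusted p = 1.94e-08). Its relative HCFC2 had 137, 169 and 193 in Scramble and 288, 426 and 426 in shOGT (log2 fold change 1.18, SE 0.18). Both genes rose with no overlap between the groups, as in 99.5% of all genes tested. SIN3A had 1486, 1515 and 1546 in Scramble and 673, 655 and 666 in shOGT (log2 fold change -1.19, SE 0.09, and -0.47 after rescaling).

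Of 24 listed partners of deacetylases in NuRD, CoREST, SIN3 and related complexes 6 were in the table. All 6 were lower, beside 57.35% of its protein-coding genes. SAP130, of the SIN3 complex, had a log2 fold change of -1.58, GATAD2A one of -1.11 and RBBP4, a histone-binding chaperone of several complexes, one of -1.05. After rescaling SAP130 (-0.87), GATAD2A (-0.39) and RBBP4 (-0.33) were no longer called.

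**Figure D5:**
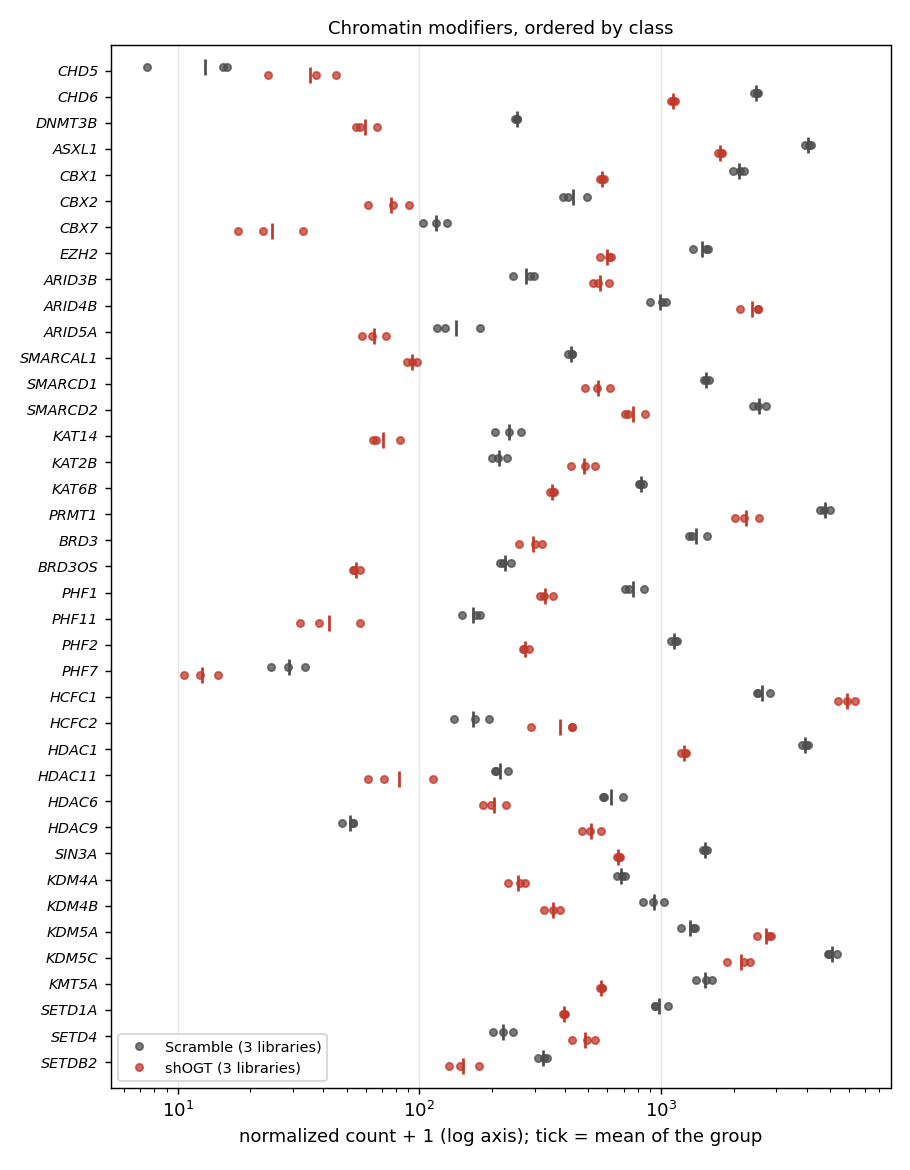
Normalized count + 1 on a log axis for each of the 39 chromatin modifiers, ordered by class, with 1 point per library (3 Scramble, 3 shOGT) and a tick at the mean of each group. HDAC9 shows the widest rise, at 46.9 to 52.3 in Scramble and 470 to 563 in shOGT, and in 30 genes the shOGT points lie to the left.

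Lysine demethylases that act on the same mark differed in direction. KDM5A and KDM5C remove methyl groups from the lysine of histone H3 that marks active promoters. KDM5A had 1204, 1380.5 and 1354 normalized counts in Scramble and 2491, 2793 and 2848 in shOGT (log2 fold change 1.05, SE 0.09), whereas KDM5C had 5358, 4959 and 4891 in Scramble and 2201, 2324 and 1876 in shOGT (log2 fold change -1.25, SE 0.09, and -0.54 after rescaling). KDM5A was just past the threshold, and its log2 fold change was 0.98 without the Scramble library numbered 1. KDM4A (-1.42) and KDM4B (-1.39), which act on a repressive mark, were lower, and 43.9% of the 75-base stretches of KDM4A occur in an overlapping gene model, AL451062.3.

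Lysine methyltransferases had 1 member higher and 3 lower. KMT5A, which places a single methyl group on histone H4, had 1532, 1624 and 1393 normalized counts in Scramble and 556, 570 and 569 in shOGT (log2 fold change -1.42, SE 0.09). SETD1A, a catalytic subunit of the COMPASS complexes, fell from 984 ± 68.3 to 395 ± 2.93 (SD, n = 3), and SETDB2 had a log2 fold change of -1.11. SETD4 rose from 222 ± 20.9 to 482 ± 53.6. The 3 lower genes lost their call after rescaling, while SETD4, like every higher gene of the table, kept it.

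Other genes of these pathways were read from hand-written lists. Of 12 genes listed as COMPASS cofactors 4 were in the table. MEN1 (log2 fold change -2.15), BOD1 (-1.74) and NCOA6 (-1.03) were lower, and NCOA6 (-0.31) was no longer called after rescaling. ASH1L (1.09) was higher, but this methyltransferase is not a COMPASS subunit. Of 15 other methyltransferases the table held 5, each of them lower. CARM1 (-1.78) and NSD2 (-1.70) were lowest and METTL23 (-1.46) and DOT1L (-1.30) highest. After rescaling NSD2 (-0.98), METTL23 (-0.74) and DOT1L (-0.58) were no longer called. PRMT1, the main enzyme of asymmetric arginine methylation and the only arginine methyltransferase among the members, fell from 4747 ± 230 to 2248 ± 258 normalized counts (SD, n = 3).

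Acetyltransferases had 3 members. KAT2B had 199, 211 and 229 normalized counts in Scramble and 423, 484 and 532 in shOGT, a log2 fold change of 1.16 (SE 0.13). KAT6B fell from 825 ± 18.1 to 354 ± 5.91 (SD, n = 3) and KAT14 from 233 ± 28.4 to 70.1 ± 10.5. Of the lower genes KAT14 kept its call after rescaling, but 14.9% of its 75-base stretches occur in PET117.

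SWI/SNF and ARID genes had 2 members higher and 4 lower. SMARCAL1, an annealing helicase that works at stalled replication forks, had 426, 428 and 411 normalized counts in Scramble and 96.8, 92.1 and 87.6 in shOGT (log2 fold change -2.18, SE 0.14). SMARCD2, a subunit of SWI/SNF complexes, had 2713, 2523 and 2404 in Scramble and 855, 730 and 709 in shOGT (log2 fold change -1.74, SE 0.10). Both kept their call after rescaling, while SMARCD1 (-1.50) and ARID5A (-1.11), added to the text after their values were seen, did not. ARID5A was -0.93 without the Scramble library numbered 1.

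ARID4B, a subunit of the SIN3A complex, had 896, 1052 and 1007 normalized counts in Scramble and 2119, 2522 and 2504 in shOGT. Its log2 fold change of 1.27 (SE 0.10) was opposite in sign to that of SIN3A. ARID3B was at 1.02 (SE 0.12), and at 0.93 without the Scramble library numbered 3 and 0.96 without the shOGT library numbered 4. The 2 CHD members, both remodellers, differed in direction, with CHD5 rising 2.88-fold on the means (15.1, 14.4 and 6.44 against 44.2, 36.4 and 22.8 normalized counts) and CHD6 falling from 2473 ± 46.8 to 1122 ± 22.4 (SD, n = 3).

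Of 32 other subunits of SWI/SNF, INO80 and SWR1, 6 were in the table and 5 were called, all lower. BCL7C (-2.34) and INO80E (-2.22) had the lowest log2 fold changes and ACTL6A had -1.75. INO80D was at 0.99, just short of the threshold.

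Base composition moved with direction in the whole table. The median GC content of the main transcript was 47.08% over protein-coding genes that were higher in shOGT and 55.48% over those that were lower. Among modifiers it was 48.53% over the 9 higher genes and 53.52% over the 30 lower genes, and the part of GC content in the result was not tested. The cluster histone genes, all of them higher, had a median of 53.01%.

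Markers of cell types were read from hand-written lists. Of 12 colon epithelium markers 5 were in the table, 2 higher and 3 lower, with a median log2 fold change of -1.12. KRT20 (2.69) and KRT19 (1.39) were higher, and MUC13 (-2.36) and LGALS4 (-1.97) were lowest. Their summed level was 9946 to 11771 normalized counts in Scramble and 18645 to 20621 in shOGT. That rise came from the 2 keratins, whose means went from 4740 to 12388 (KRT19) and from 877 to 5641 (KRT20). Of 6 fibroblast markers only PDGFRB was in the table, at 0 to 1.80 in Scramble and 10.5 to 17.1 in shOGT. Of 5 immune markers only LYZ was in the table, at 7918 to 8617 and 15653 to 17397, and of 3 endothelial markers only PECAM1, at 42.3 to 51.4 in Scramble and 128.6 to 199.99 in shOGT. The part of cell state or of other cells in the results was not tested.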

How the data were processed

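RNA-seq libraries of HT-29 cells with a Scramble (n = 3) or an OGT hairpin (n = 3) were compared. The authors deposited normalized counts, a signal in which each library's read counts are divided by its size factor (1.09 to 1.13 in Scramble, 0.879 to 0.950 in shOGT) and not by gene length. Whole reads were recovered for 100% of values (tolerance 0.02). The table also holds the authors' group means, p-values (raw and adjusted) and log2 fold changes, which served only to see which genes it lists. The submitters' processing notes list cutadapt 1.9, HISAT2 2.0.4, UMI-tools, StringTie 1.3.4d, DESeq2 and edgeR. They name a mouse build, but all 5681 genes matched GENCODE version 29 (GRCh38). Labels and methods describe the library kit differently, and use of strand in counting is not given in the sources used here.

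limma's trend method (limma 3.58.1, R 4.3.3) took log2(normalized count + 1) of the 5671 genes that reached 1 in 3 or more libraries, with group as the only term and Benjamini-Hochberg adjustment. This scale understates changes of low genes. Alternatives were rescaling by the median of ratios, a pseudocount of 0.1, no filter, a mean of at least 5, count tests on the recovered reads by edgeR 4.0.16 or DESeq2 1.42.0, and each library left out. The fits were tested on simulated data. Floors of 3 reads cover counting error only. Replicate pairs differed beyond sampling noise (chi-square per gene 2.48 to 9.82).

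Members are protein-coding genes whose symbols start with a fixed set of histone and modifier prefixes or names. Members and lists were chosen with earlier results of these data known. All histone members are named, and of each modifier class the 2 highest and 2 lowest log2 fold changes with a mean of at least 10, with fixed partners of OGT. Of each list the 2 highest and 2 lowest are named, except genes that are not reported here. Sharing was measured on the transcript with the longest coding part of each gene, as the percentage of its 75-base stretches found in other genes. Genes not in the table were not analysed.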

Additional observations from a re-analysis of the deposited data

How the results depend on the processing

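After rescaling by the median of ratios, 42 members were called, 13 of them lower, with 2 histone genes lower, 20 modifiers called, 11 of them lower, and 1090 of all genes lower. The count tests of edgeR and DESeq2 each called all 64 members, in a table already restricted to such genes. With a mean of at least 5, 63 members could be tested and all were called. Of the fitted log2 fold changes, those of HIST1H4D and HIST1H1T, at the floor in Scramble, moved most with a pseudocount of 0.1, from 3.08 to 5.47 and from 2.62 to 5.59. Leaving out a library ended the call of H1FX, HIST1H1D, KDM5A, ARID3B or ARID5A among the members, with the values given above, and of RING1, RRM1, TK1 or LYZ among the lists. INO80D passed the threshold by edgeR, by DESeq2 and after rescaling. No paired analysis was possible because the libraries of the groups share no replicate numbers. Genes with under 10 reads per library, such as HIST1H4D and HIST1H3J in Scramble, are limited by depth.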

Other observations

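A further 5 symbols that fit the same prefixes are annotated as other than protein coding, and all 5 were higher in shOGT, as were 79% of the 1544 genes of the table outside the protein-coding class. The histone pseudogenes HIST2H2BC and HIST2H2BD rose from 151 ± 26.9 to 328 ± 43.5 and from 34.7 ± 11.4 to 93.4 ± 1.06 normalized counts (SD, n = 3). HIST1H2APS3, an H2A pseudogene, rose from 2.71 ± 1.57 to 16.6 ± 5.71. KMT2E-AS1, antisense to a methyltransferase gene, rose from 8.11 ± 1.74 to 67.4 ± 9.96, a log2 fold change of 2.92, and KDM7A-DT, which starts beside a demethylase gene, from 13.5 ± 2.22 to 60.0 ± 12.3. Neither KMT2E nor KDM7A is among the genes of the table. The pseudogenes resemble expressed histone genes in sequence, so the source of their reads is uncertain.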
